A study of Homo sapiens with 30 samples.

Results

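The genes described here are 10 that write, read or recruit methylation of histone H3 at lysine 9 (H3K9): the methyltransferases SUV39H1, SUV39H2, SETDB1, SETDB2, EHMT1 and EHMT2, the heterochromatin protein 1 (HP1) genes CBX1, CBX3 and CBX5, and the corepressor TRIM28. They were chosen by symbol from the gene-level read counts, and all 10 were found among the 27630 genes of the table. HEK293FT, an immortalised line of human embryonic kidney origin, gave the 8 RNA libraries, 2 in each of 4 groups. The groups were RNA of a nuclear fraction, RNA of a cytosolic fraction, RNA of a native lamina preparation and RNA of a lamina preparation fixed with paraformaldehyde (PFA), called nuclear, cytosolic, native lamina and PFA lamina RNA below. In both lamina preparations the peroxidase APEX2, fused to lamin B1, marked RNA in its vicinity.

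Cells of all 4 groups were asynchronous and had received the fusion of APEX2 and lamin B1 by transfection with Lipofectamine 2000, per the labels. The fractions therefore came from transfected cells too, and the labels name neither the promoter that drove the fusion nor a group without it. Replicates are numbered, but nothing in the labels says that they were separate cultures, so a p-value here measures the spread between these libraries, which may be technical. The study also mapped the domains of the genome that lie at the lamina in HCT116, a human colorectal carcinoma line, in G1, S and G2, with 1 list of intervals per stage.

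Methylation of H3K9 marks heterochromatin, the compact and largely silent part of the genome, much of which lies against the nuclear lamina. SUV39H1 and SUV39H2 trimethylate H3K9 at repeats near centromeres, EHMT1 (GLP) and EHMT2 (G9a) act as a complex that mono- and dimethylates it in euchromatin, and SETDB1 trimethylates it at retroelements, where TRIM28 (KAP1) brings it through KRAB zinc finger proteins. The HP1 proteins, CBX5 (alpha), CBX1 (beta) and CBX3 (gamma), bind methylated H3K9 through their chromodomain and join neighbouring nucleosomes into compact chromatin. What was measured here is the relative level of the messenger RNAs of these genes in each fraction or preparation, not the location of their proteins.

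Library totals ran from 2321291 counts in PFA replicate 2 to 8557777 in native replicate 1. A count of 3 was taken as the floor of detection, which equals 0.351 to 1.29 CPM (counts scaled by the library total). All 4 HEK293FT markers checked had at least 1 count in each library, except that PAX2 had none in cytosolic replicate 2. Of 5 erythroid and blood markers, 4 had no count in any of the 8 libraries. The HEK293FT markers summed to 77.5 to 420.5 CPM per library, and 4 colorectal markers, of which CDH17, VIL1 or LGALS4 had no count in some libraries, to 21.2 to 51.3 CPM. The highest count of 1 colorectal marker in any library was 313, while the largest sum of the 4 was 325 counts. In the library with that count the colorectal sum was thus mostly 1 gene. LMNB1, the gene of the fusion, took 0.304% to 0.520% of counts in the fractions and 2.96% to 9.49% in the lamina libraries. The summed level of the nuclear RNAs MALAT1 and NEAT1 was 12639 to 18749 CPM in nuclear RNA, 977 to 1040 CPM in cytosolic RNA, 6976 to 15147 CPM in native lamina RNA, 648 CPM in PFA replicate 1 and 4479 CPM in PFA replicate 2. The summed level of the messenger RNAs of GAPDH, ACTB and EEF1A1, abundant in the cytosol, was 802 to 1163, 4873 to 6566, 2302 to 2327 and 1814 to 2345 CPM in the same order of groups. Across genes, which are not independent replicates, the correlation of log2 normalised CPM with PFA replicate 1 was 0.957 for cytosolic replicate 1 and 0.911 for PFA replicate 2. The part of this difference between the PFA libraries in the results below was not tested. In the file of cytosolic replicate 1 the header carries an output name that belongs to nuclear replicate 1, but its correlation was 0.968 with cytosolic replicate 2 and 0.790 with nuclear replicate 1, and it was used as labelled.

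In hg19, the build of the counts, EHMT2 lies on chromosome 6 from 31847536 to 31865484 and EHMT1 on chromosome 9 from 140513444 to 140730578. SUV39H1 lies on chromosome X from 48553945 to 48567406, and SUV39H2 on chromosome 10 from 14920782 to 14946304. SETDB1 lies on chromosome 1 from 150898815 to 150937220, and SETDB2 on chromosome 13 from 50018429 to 50069139. The HP1 genes are CBX1 on chromosome 17 from 46147414 to 46178883, CBX3 on chromosome 7 from 26240831 to 26253227 and CBX5 on chromosome 12 from 54624731 to 54673915, and TRIM28 is on chromosome 19 from 59055836 to 59062082. Reads were counted over the exons of each gene, and 2 members have a limit of their own. SETDB2 shares 2571 exonic bases, 41.3% of its exons, with the read-through gene SETDB2-PHF11, which had 22 to 104 counts per library, and a read in the shared part counted for both genes. EHMT2 is also annotated on 6 alternative contigs of chromosome 6, and since the file headers name no option for counting reads with several alignments, its counts may be understated. CBX5 shares 80 exonic bases with the microRNA gene MIR3198-2, and the other 8 members share none with another gene.

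The promoters of 3 members are shown because their RNAs were called in opposite directions between nucleus and cytosol: EHMT2 and CBX1, which were lower in nuclear than in cytosolic RNA, and SETDB2, the member that was higher there. Each is the 250 bases before the annotated start, from RefSeq on GRCh38.p14, and 9 of the 10 members had an entry. Capitals mark CCAAT (the CCAAT box), GGGCGG (the GC box), CACGTG (an E-box) or TATAAA (the TATA box) on either strand, so that ATTGG is a CCAAT read from the other strand. None of the motifs overlapped another in these windows.
EHMT2 (chr6:31897699-31897948, minus strand): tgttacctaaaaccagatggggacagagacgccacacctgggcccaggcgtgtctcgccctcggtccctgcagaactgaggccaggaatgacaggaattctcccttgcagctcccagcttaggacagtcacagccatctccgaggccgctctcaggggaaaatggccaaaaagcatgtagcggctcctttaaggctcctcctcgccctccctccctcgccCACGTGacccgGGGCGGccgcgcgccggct
CBX1 (chr17:48101187-48101436, minus strand): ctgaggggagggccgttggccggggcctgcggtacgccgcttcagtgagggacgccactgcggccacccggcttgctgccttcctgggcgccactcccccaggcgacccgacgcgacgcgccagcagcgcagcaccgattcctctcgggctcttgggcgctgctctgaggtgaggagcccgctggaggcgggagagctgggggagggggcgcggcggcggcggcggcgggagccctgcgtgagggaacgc
SETDB2 (chr13:49444024-49444273, plus strand): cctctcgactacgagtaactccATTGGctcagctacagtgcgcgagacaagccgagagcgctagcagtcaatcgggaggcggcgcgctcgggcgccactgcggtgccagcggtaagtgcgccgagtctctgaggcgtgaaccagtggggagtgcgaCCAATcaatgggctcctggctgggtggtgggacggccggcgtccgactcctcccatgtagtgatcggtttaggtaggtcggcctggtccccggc
The EHMT2 window held 1 GGGCGG and 1 CACGTG, the SETDB2 window held 2 CCAAT, and the CBX1 window held none of the 4 motifs. Of the other members called lower in nuclear RNA, CBX3 held 1 GGGCGG. SUV39H1 held 1 CCAAT and 2 GGGCGG in the window from 48696484 and none of the motifs in that from 48695304. Over 35116 promoters of the same length, 42.6% held GGGCGG, 6.34% held CACGTG, 32% held CCAAT and 10.7% held TATAAA. CpG dinucleotides numbered 16 in EHMT2, 30 in CBX1 and 25 in SETDB2, beside a median of 11 and quartiles of 3 and 23 over all these promoters. A match describes the letters of the window and is not a bound site.

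Levels are given as normalised CPM, which are CPM after scaling by the trimmed mean of M-values (TMM). Between genes they are compared per kilobase of exon. On that scale TRIM28 had the highest level of the 10 in each group, with means of 100.6 in nuclear RNA, 247 in cytosolic RNA, 133 in native lamina RNA and 163 in PFA lamina RNA. SETDB2 had the lowest in each group, with means of 3.201, 1.51, 1.83 and 1.70. By mean level the HP1 genes came next to TRIM28 in every group: CBX5 was second in nuclear RNA at 25.5 and in native lamina RNA at 56.5, and CBX1 was second in cytosolic RNA at 60.5 and in PFA lamina RNA at 34.6. The libraries of neighbouring HP1 genes overlapped in both lamina preparations, as did those of CBX3 and CBX1 in nuclear RNA, while in cytosolic RNA CBX1, CBX3 (55.3) and CBX5 (44.1) were apart. Not every HP1 gene stood clear of the methyltransferases: CBX1 (13.7 to 20.7) overlapped SUV39H2 (16.3 to 17.4) in nuclear RNA, and CBX3 (14.5 to 30.4) overlapped EHMT1 (16.8 to 20.3) in PFA lamina RNA. Among the methyltransferases, SUV39H2 (16.9) and SETDB1 (16.0) led in nuclear RNA with overlapping libraries, EHMT2 (24.6) led in cytosolic RNA without overlap, and EHMT1 and EHMT2 led with overlapping libraries in native lamina RNA (18.8 and 18.3) and in PFA lamina RNA (18.6 and 18.2). The EHMT2 values use its 4527 exonic bases on chromosome 6, and with the length summed over all contigs the native value would be 2.73.

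**Figure D1:**
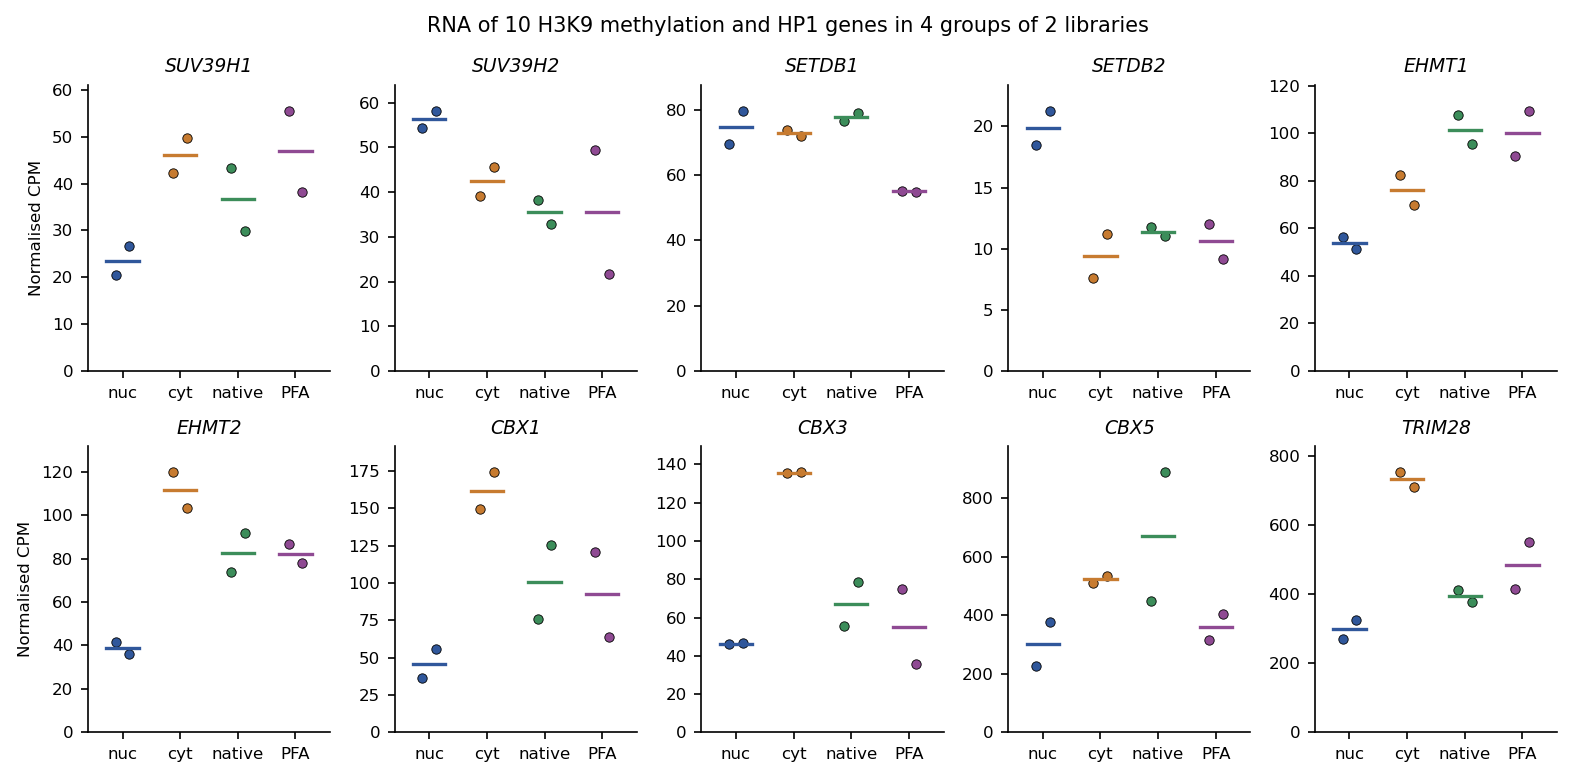
Normalised CPM (CPM after TMM scaling, vertical axis from 0) of the 10 genes in nuclear RNA (nuc), cytosolic RNA (cyt), native lamina and PFA lamina. Points are libraries, 2 per group, and bars are their means. By their means EHMT2, CBX1, CBX3 and TRIM28 are lowest in nuclear RNA and highest in cytosolic RNA, SETDB2 is highest in nuclear RNA, and the PFA libraries of SUV39H2, CBX1 and CBX3 lie far apart.

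The first comparison set the levels of these messenger RNAs in nuclear RNA against those in cytosolic RNA. A level is relative to the other RNA of its library, so how a transcript divides between nucleus and cytosol was not measured. Relative to cytosolic RNA, 5 of the 10 members were lower in nuclear RNA (CBX1, CBX3, EHMT2, TRIM28 and SUV39H1), 1 was higher (SETDB2), and SUV39H2, SETDB1, EHMT1 and CBX5 did not pass the test. The test was edgeR's quasi-likelihood test over 16504 genes, all 10 members among them, with a Benjamini-Hochberg adjusted p under 0.05 taken as a call. Of all genes tested 47.3% were called, 21.2% lower and 26.1% higher. The median log2 fold change of the 10 members was -0.88, beside 0.13 over all genes. As these are bulk libraries, fewer cells with a transcript and fewer transcripts per cell cannot be told apart.

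Each lamina preparation was then compared with both fractions, so that comparisons with the same fraction share its libraries. In native lamina RNA 1 of the 10 members was higher than in nuclear RNA (EHMT2), where 7.31% of all genes were called, 3.87% higher and 3.44% lower. In PFA lamina RNA 3 of the 10 were higher than in nuclear RNA (EHMT2, EHMT1 and SUV39H1), where 17.4% of all genes were called, 9.63% higher and 7.81% lower. The members' median log2 fold change against nuclear RNA was 0.59 in native and 0.48 in PFA lamina RNA, beside -0.07 and -0.04 over all genes. Against cytosolic RNA none of the 10 was called by edgeR in native lamina RNA, where 13.8% of all genes were called (6.99% higher and 6.77% lower), or in PFA lamina RNA, where 0.673% were (0.527% higher and 0.145% lower). In each of these comparisons 2 members had an unadjusted p under 0.05, CBX3 and TRIM28 in native and CBX3 and CBX1 in PFA lamina RNA, beside 31.7% and 21.5% of all genes. The Wald test of DESeq2 called 2 and 1 members there, beside 16.9% and 5.95% of all genes. Between the preparations edgeR called none of the 10 and 0% of all genes, with CBX5 alone among the members at an unadjusted p under 0.05, while 1821 of all genes had one, and the Wald test of DESeq2 called none of the 10 and 223 of all genes.

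**Figure D2:**
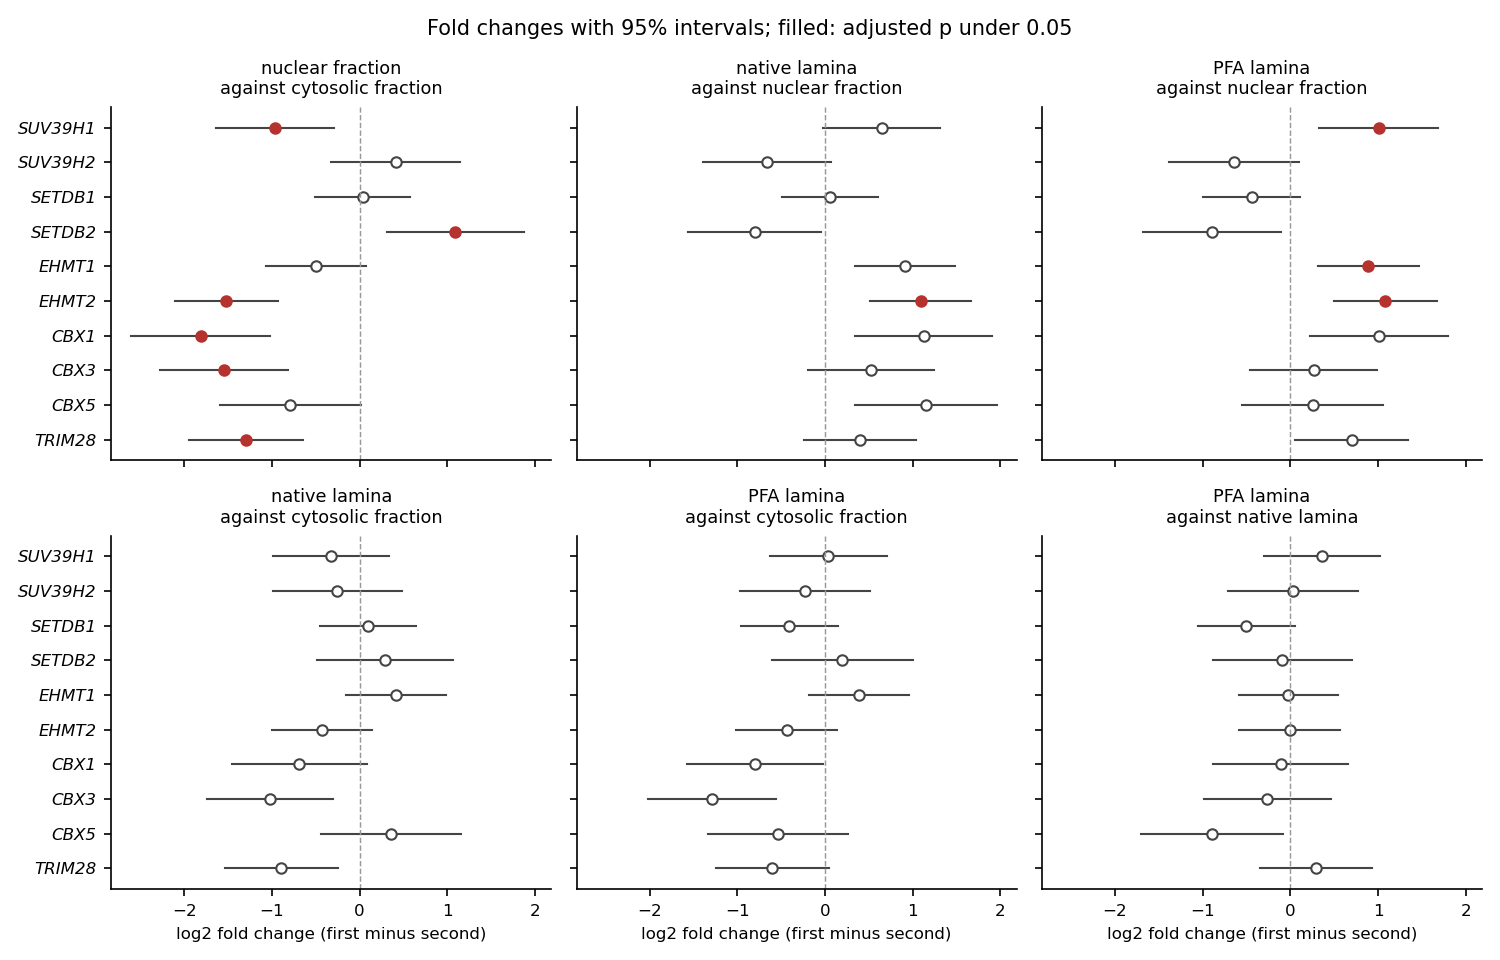
Log2 fold changes (horizontal axis, first group minus second) of the 10 genes in the 6 comparisons, with 95% intervals of edgeR's fit. Filled points have an adjusted p under 0.05. Filled points lie on both sides of 0 in nuclear against cytosolic RNA, and in the comparisons with nuclear RNA EHMT2 is filled for both preparations while EHMT1 and SUV39H1 are filled for the PFA lamina.

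EHMT2, which encodes the methyltransferase G9a, had the largest fold change between the fractions among the methyltransferases. Its level was 41.7 and 35.9 CPM in the nuclear libraries (replicates 1 and 2), 119.8 and 103 CPM in the cytosolic libraries, 73.8 and 91.7 CPM in native lamina RNA and 86.5 and 78.0 CPM in PFA lamina RNA. The 4 lamina libraries lay between the fractions, above both nuclear and below both cytosolic libraries. In nuclear RNA EHMT2 was 2.87-fold lower than in cytosolic RNA (log2 fold change -1.52, SE 0.27, adjusted p = 0.00132), and this call was kept in each of the 15 alternatives run. It was 2.13-fold higher in native lamina RNA than in nuclear RNA (1.09, SE 0.27, adjusted p = 0.0336) and 2.12-fold higher in PFA lamina RNA (1.08, SE 0.27, adjusted p = 0.0210). Against cytosolic RNA the log2 fold change was -0.43 (95% interval -1.001 to 0.14) in native and -0.44 (-1.01 to 0.14) in PFA lamina RNA. The native call was lost without any single library of the nuclear, cytosolic or native group, at log2 fold changes of 0.94 to 1.25. It was also lost with upper-quartile scaling (adjusted p = 0.0524). The PFA call was lost without nuclear replicate 1 (log2 fold change 1.19), nuclear replicate 2 (0.99) or PFA replicate 1 (1.02). It was also lost in a fit of only the 4 libraries compared (adjusted p = 0.0632). Each of these fits called fewer of all genes than the main fit, so the losses are not particular to EHMT2.

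EHMT1, which encodes its partner GLP, showed another order of the groups. Its level was 56.5 and 51.4 CPM in the nuclear libraries, 82.4 and 70.0 CPM in the cytosolic libraries, 108 and 95.5 CPM in native lamina RNA and 90.5 and 109.6 CPM in PFA lamina RNA. All 4 lamina libraries lay above all 4 fraction libraries. Between the fractions the log2 fold change was -0.50 (95% interval -1.07 to 0.07), which did not pass the test. EHMT1 was 1.85-fold higher in PFA lamina RNA than in nuclear RNA (0.89, SE 0.27, adjusted p = 0.0379). In native lamina RNA the log2 fold change against nuclear RNA was 0.91 (SE 0.27) with an adjusted p of 0.0526. Against cytosolic RNA it was 0.41 (-0.15 to 0.98) in native and 0.39 (-0.18 to 0.96) in PFA lamina RNA, so neither preparation was called above both fractions. The PFA call was lost without any single one of the 8 libraries, at log2 fold changes of 0.76 to 1.04. It was also lost with upper-quartile scaling (adjusted p = 0.0755) and in a fit of only the 4 libraries compared (0.0911). Fewer of all genes were called in these fits too, except without PFA replicate 2, where more were. The native difference from nuclear RNA was called in 7 of the 15 alternatives. They included total counts (adjusted p = 0.0304), no filter (0.0323), the replicate block (0.0402) and the Wald test of DESeq2 (0.0228). The others were a fit of only the 4 libraries compared (0.00945) and the fits without PFA replicate 1 (log2 fold change 0.94) or PFA replicate 2 (0.93). Each of these 7 fits also called more of all genes than the main fit.

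SUV39H1, which trimethylates H3K9 in pericentromeric heterochromatin, was lower in nuclear than in cytosolic RNA. Its level was 20.4 and 26.6 CPM in the nuclear libraries, 42.4 and 49.7 CPM in the cytosolic libraries, 43.4 and 29.9 CPM in native lamina RNA and 55.6 and 38.3 CPM in PFA lamina RNA. The nuclear libraries were the lowest of the 8, and the lamina and cytosolic libraries overlapped. The nuclear level was 1.96-fold lower than the cytosolic level (log2 fold change -0.97, SE 0.31, adjusted p = 0.0225). In PFA lamina RNA SUV39H1 was 2.01-fold higher than in nuclear RNA (1.01, SE 0.32, adjusted p = 0.0439), and in native lamina RNA the log2 fold change was 0.65 (95% interval -0.03 to 1.32). The call between the fractions was lost without nuclear replicate 1 (log2 fold change -0.79), cytosolic replicate 1 (-1.10) or cytosolic replicate 2 (-0.87). It was also lost with upper-quartile scaling (adjusted p = 0.0643). The PFA call was lost without nuclear replicate 1 (log2 fold change 0.82), nuclear replicate 2 (1.22), cytosolic replicate 1 (1.02), cytosolic replicate 2 (1.02) or PFA replicate 1 (0.71). It was also lost with upper-quartile scaling (adjusted p = 0.0660) and in a fit of only the 4 libraries compared (0.0921). Each of these fits called fewer of all genes as well.

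SUV39H2, the paralog of SUV39H1, had its highest libraries in nuclear RNA. Its level was 54.3 and 58.2 CPM there, 39.2 and 45.7 CPM in the cytosolic libraries, 38.1 and 32.9 CPM in native lamina RNA and 49.5 and 21.7 CPM in PFA lamina RNA. The nuclear libraries lay above the other 6, and the PFA libraries differed 2.28-fold. None of its comparisons was called: the log2 fold change was 0.41 (95% interval -0.32 to 1.14) between nuclear and cytosolic RNA, -0.66 (-1.39 to 0.07) between native lamina and nuclear RNA and -0.64 (-1.38 to 0.10) between PFA lamina and nuclear RNA. Without PFA replicate 1 the last of these became -1.36 (adjusted p = 0.0410).

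SETDB1, the methyltransferase that TRIM28 recruits, stood between 69.6 and 79.7 CPM in both fractions and in native lamina RNA. Its level was 69.6 and 79.7 CPM in the nuclear libraries, 73.8 and 71.9 CPM in the cytosolic libraries, 76.5 and 79.0 CPM in native lamina RNA and 55.1 and 54.8 CPM in PFA lamina RNA. The PFA libraries were the lowest of the 8, and the ranges of nuclear RNA and of the other 2 groups overlapped. The log2 fold change was 0.03 (95% interval -0.51 to 0.58) between nuclear and cytosolic RNA, 0.06 (-0.48 to 0.60) between native lamina and nuclear RNA and -0.44 (-0.99 to 0.11) between PFA lamina and nuclear RNA. None passed the test, and the sign of the first and second values turned under several alternatives.

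SETDB2, a relative of SETDB1, was the member that was higher in nuclear RNA. Its level was 18.5 and 21.3 CPM in the nuclear libraries, 7.62 and 11.2 CPM in the cytosolic libraries, 11.7 and 11.1 CPM in native lamina RNA and 12.01 and 9.20 CPM in PFA lamina RNA. The nuclear libraries lay above the other 6, whose groups overlapped. The nuclear level was 2.13-fold higher than the cytosolic level (log2 fold change 1.09, SE 0.36, adjusted p = 0.0251). The log2 fold change from nuclear RNA was -0.80 (95% interval -1.56 to -0.04, adjusted p = 0.153) in native and -0.89 (-1.68 to -0.10, adjusted p = 0.104) in PFA lamina RNA, neither of which was called. The call rests on few reads, 53 to 124 counts in the fraction libraries and 25 in PFA replicate 2. It was lost without nuclear replicate 1 (log2 fold change 1.18), nuclear replicate 2 (0.97) or cytosolic replicate 1 (0.81). Those fits called fewer of all genes too. Reads in the exons shared with SETDB2-PHF11 are part of these counts.

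The HP1 genes CBX1 and CBX3 had the largest fold changes between the fractions among the 10 members. CBX1, encoding HP1 beta, stood at 36.7 and 55.5 CPM in the nuclear libraries, 149 and 174 CPM in the cytosolic libraries, 75.9 and 125 CPM in native lamina RNA and 121 and 64.0 CPM in PFA lamina RNA. All 4 lamina libraries lay between the fractions. The nuclear level was 3.51-fold lower than the cytosolic level (log2 fold change -1.81, SE 0.37, adjusted p = 0.00227), a call kept in each of the 15 alternatives. The log2 fold change from nuclear RNA was 1.124 (SE 0.36, adjusted p = 0.0699) in native and 1.01 (SE 0.36, adjusted p = 0.0689) in PFA lamina RNA, and from cytosolic RNA it was -0.69 (95% interval -1.45 to 0.08) and -0.80 (-1.57 to -0.03, adjusted p = 0.218). The PFA libraries differed 1.89-fold, and these values depended on them. Without PFA replicate 2 the difference from nuclear RNA was called at 1.41, and without PFA replicate 1 that from cytosolic RNA was called at -1.39. More of all genes were called in both of those fits as well. The PFA difference from nuclear RNA was also called with total counts (adjusted p = 0.0341) and with no filter (0.0143). The native difference from nuclear RNA was called in 6 of the 15 alternatives. They included total counts (adjusted p = 0.0181), no filter (0.00728) and the Wald test of DESeq2 (0.0336). The others were a fit of only the 4 libraries compared (0.00570) and the fits without PFA replicate 1 (log2 fold change 1.15) or PFA replicate 2 (1.14). Each of these 6 fits also called more of all genes than the main fit.

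CBX3, encoding HP1 gamma, stood at 46.1 and 46.6 CPM in the nuclear libraries, 135 and 136 CPM in the cytosolic libraries, 55.4 and 78.4 CPM in native lamina RNA and 74.7 and 35.7 CPM in PFA lamina RNA. The fraction libraries nearly coincided within each group, while the PFA libraries differed 2.09-fold, on either side of the nuclear libraries. The nuclear level was 2.93-fold lower than the cytosolic level (log2 fold change -1.55, SE 0.34, adjusted p = 0.00323), again in each of the 15 alternatives. From nuclear RNA the log2 fold change was 0.53 (95% interval -0.19 to 1.25) in native and 0.27 (-0.46 to 0.99) in PFA lamina RNA. From cytosolic RNA it was -1.02 (SE 0.33, adjusted p = 0.0571) in native and -1.28 (SE 0.34, adjusted p = 0.0766) in PFA lamina RNA. Without PFA replicate 1 the latter was called at -1.98, and the PFA difference from nuclear RNA turned to -0.36. The PFA difference from cytosolic RNA was also called with no filter (adjusted p = 0.00364) and by the Wald test of DESeq2 (0.0103). More of all genes were called against cytosolic RNA in these 3 fits as well. The native difference from cytosolic RNA was called in 6 of the 15 alternatives. They included no filter (adjusted p = 0.0152), the replicate block (0.0490) and the Wald test (0.0255). The others were a fit of only the 4 libraries compared (0.0165) and the fits without PFA replicate 1 (log2 fold change -1.06) or PFA replicate 2 (-1.02). Each of these 6 fits also called more of all genes than the main fit.

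CBX5, encoding HP1 alpha, had native lamina libraries that lay far apart. It stood at 227 and 377 CPM in the nuclear libraries, 511 and 535 CPM in the cytosolic libraries, 451 and 890.1 CPM in native lamina RNA and 315 and 406 CPM in PFA lamina RNA. Native replicate 2 was the highest of the 8 at 1.97 times native replicate 1, and the nuclear and PFA libraries overlapped. In the fit of all 8 libraries none of its differences was called: the log2 fold change was -0.79 (95% interval -1.60 to 0.01) between nuclear and cytosolic RNA, 1.15 (SE 0.38, adjusted p = 0.0724) between native lamina and nuclear RNA, 0.26 (-0.55 to 1.06) between PFA lamina and nuclear RNA and -0.89 (adjusted p = 0.419) between PFA and native lamina RNA. From cytosolic RNA it was 0.36 (-0.44 to 1.16) in native and -0.54 (-1.34 to 0.27) in PFA lamina RNA. Without native replicate 2 the native difference from cytosolic RNA became -0.22 (adjusted p = 0.811). The difference between the fractions was called in 4 of the 15 alternatives. They were the replicate block (-0.85, adjusted p = 0.0351), no filter (0.0437), a fit of only the 4 libraries compared (0.0276) and the fit without PFA replicate 1 (log2 fold change -0.86). A larger share of all genes was called there too, except with no filter. The native difference from nuclear RNA was called in 7 of the 15. They included the replicate block (1.13, adjusted p = 0.0376), total counts (0.0285), no filter (0.0104) and the Wald test of DESeq2 (0.0200). The others were a fit of only the 4 libraries compared (0.0128) and the fits without PFA replicate 1 (log2 fold change 1.18) or PFA replicate 2 (1.16). Each of these 7 fits also called more of all genes than the main fit.

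TRIM28, the corepressor that links KRAB zinc finger proteins to SETDB1 and HP1, was the most abundant of the 10 per kilobase and was lower in nuclear RNA. It stood at 269.7 and 325 CPM in the nuclear libraries, 753 and 709.6 CPM in the cytosolic libraries, 411 and 376 CPM in native lamina RNA and 414 and 552 CPM in PFA lamina RNA. All 4 lamina libraries lay above both nuclear and below both cytosolic libraries. The nuclear level was 2.46-fold lower than the cytosolic level (log2 fold change -1.30, SE 0.30, adjusted p = 0.00433). Among the 15 alternatives this call was lost only without nuclear replicate 1 (-1.17), where fewer of all genes were called too. From nuclear RNA the log2 fold change was 0.40 (95% interval -0.24 to 1.04) in native and 0.70 (0.06 to 1.34, adjusted p = 0.116) in PFA lamina RNA. From cytosolic RNA it was -0.89 (SE 0.30, adjusted p = 0.0616) in native and -0.60 (-1.24 to 0.04) in PFA lamina RNA. The native difference from cytosolic RNA was called in 5 of the 15 alternatives. They included the replicate block (adjusted p = 0.0488), the Wald test of DESeq2 (0.00648) and a fit of only the 4 libraries compared (0.0404). The others were the fits without PFA replicate 1 (log2 fold change -0.93) or PFA replicate 2 (-0.90). Each of these 5 fits also called more of all genes than the main fit.

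Set beside both fractions, the mean level in native lamina RNA lay between them for 6 of the 10 members, as it did for 6 in PFA lamina RNA. Of all genes tested, 60.5% and 61.9% did so, so the members' counts are near the background. EHMT1 lay above both fractions in all 4 lamina libraries, as 2.17% of all genes did. SUV39H2 lay below all 4 fraction libraries in both native libraries, where 6.41% of all genes did, and SETDB1 did so in both PFA libraries, where 4.65% did. These genes were picked out after their levels were seen. No member was called against both fractions in either preparation. This follows from none being called against cytosolic RNA, where 13.8% of all genes were called in native and 0.673% in PFA lamina RNA.

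The paralogs of a family were also set against each other within each library, where scaling between libraries does not enter. Shares are of the counts of the family, with 95% Wilson intervals that cover counting error only, and the differences between groups were not tested. They are not corrected for exon length, which is 11867 bases for CBX5, 2676 for CBX1 and 2453 for CBX3. A share is therefore compared between libraries and does not rank the genes of a family. SUV39H1 took 27.3% (23.5 to 31.4) and 31.4% (27.4 to 35.6) of the SUV39H1 and SUV39H2 counts in the nuclear libraries, and 47.7% (43.0 to 52.4) to 63.8% (56.2 to 70.8) in the other 6. The nuclear libraries were thus apart from all others in the balance of this pair. EHMT2 took 59.3% (56.8 to 61.7) and 59.6% (56.2 to 62.9) of the EHMT1 and EHMT2 counts in the cytosolic libraries, and 40.7% (38.4 to 43.0) to 49.0% (46.2 to 51.7) in the other 6, so here the cytosolic libraries were apart. SETDB2 took 21.0% (17.9 to 24.6) and 21.1% (18.0 to 24.6) of the SETDB1 and SETDB2 counts in the nuclear libraries and 9.36% (7.29 to 11.9) to 17.9% (14.3 to 22.2) elsewhere, and its nuclear intervals overlapped those of both PFA libraries. CBX5 took 64.2% (62.99 to 65.4) and 63.3% (61.8 to 64.8) of the HP1 counts in the cytosolic libraries and 73.3% (71.3 to 75.2) to 81.4% (80.5 to 82.3) in the nuclear and native libraries. The PFA libraries fell on both sides, at 61.7% (59.9 to 63.5) and 80.3% (78.1 to 82.3).

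**Figure D3:**
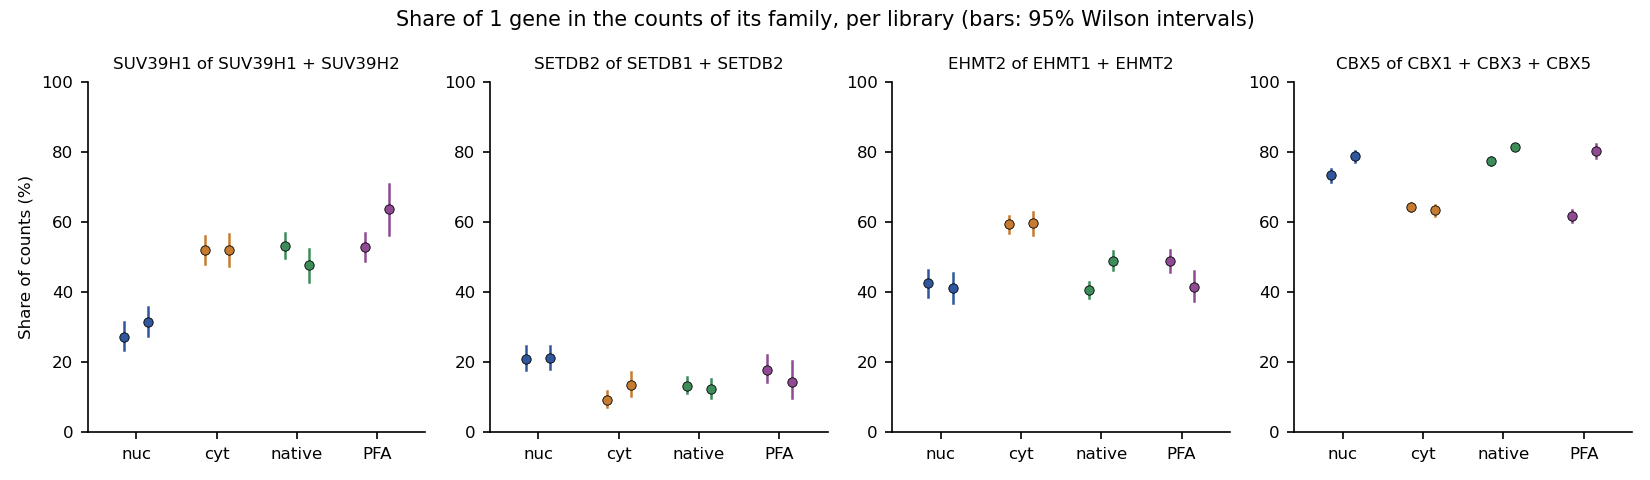
Share (%, vertical axis from 0 to 100) of 1 gene in the counts of its family in each library, by group, with 95% Wilson intervals. The 2 nuclear libraries stand lowest for SUV39H1, the 2 cytosolic libraries stand highest for EHMT2, and the PFA libraries are far apart for CBX5.

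The enzymes that remove H3K9 methylation were read from a list of 11 demethylases, with the same call rule. Between nuclear and cytosolic RNA 4 were lower and 1 was higher, beside 21.2% and 26.1% of all genes. Their median log2 fold change was -0.65, beside 0.13 over all genes. KDM1A, the demethylase LSD1, was lower in nuclear RNA (-1.41, SE 0.30, adjusted p = 0.00301), and JMJD1C, a relative of the KDM3 demethylases, was higher (1.55, SE 0.29, adjusted p = 0.00153). In native lamina RNA 3 were higher than in nuclear RNA, beside 3.87% of all genes, among them PHF2, a JmjC-domain demethylase (1.07, SE 0.30, adjusted p = 0.0487). In PFA lamina against nuclear RNA 1 was higher (KDM4D, at a mean of 3.18 CPM in nuclear RNA) and JMJD1C was lower (-1.13, SE 0.29, adjusted p = 0.0222). Of all genes 9.63% were higher and 7.81% lower there. Against cytosolic RNA JMJD1C was the 1 gene of the list called in native lamina RNA (1.11, SE 0.29, adjusted p = 0.0243), where 13.8% of all genes were called. In PFA lamina against cytosolic RNA edgeR called none of the 11 and 0.673% of all genes. There 2 of the list had an unadjusted p under 0.05, beside 21.5% of all genes.

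Among 10 partners of the methyltransferases, 3 were lower and 1 was higher in nuclear than in cytosolic RNA, beside 21.2% and 26.1% of all genes. Their median was -0.07. WIZ, a zinc finger protein of the G9a and GLP complex, was lower (-1.39, SE 0.27, adjusted p = 0.00167), and MPHOSPH8, a chromodomain subunit of the HUSH complex that works with SETDB1, was higher (1.42, SE 0.28, adjusted p = 0.00198). In native lamina RNA 3 were higher than in nuclear RNA, beside 3.87% of all genes, led by the chromodomain protein CDYL (1.15, SE 0.28, adjusted p = 0.0333). In PFA lamina RNA 2 were higher than in nuclear RNA, beside 9.63% of all genes. They were led by UHRF1, which binds methylated H3K9 and hemimethylated DNA (1.117, SE 0.26, adjusted p = 0.0171).

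Of 11 proteins that bind HP1 or act in heterochromatin, 10 were tested, since SP100 had too few counts. Between the fractions 2 were higher and 2 were lower in nuclear RNA, beside 26.1% and 21.2% of all genes, with a median of -0.15. DAXX, a chaperone of the histone variant H3.3, was lower in nuclear RNA (-1.61, SE 0.31, adjusted p = 0.00163), and its partner ATRX, a chromatin remodeller, was higher (0.98, SE 0.31, adjusted p = 0.0202). DAXX was higher than in nuclear RNA in native lamina RNA (1.597, SE 0.30, adjusted p = 0.0142) and in PFA lamina RNA (1.85, SE 0.31, adjusted p = 0.00690), and ATRX was higher in native lamina RNA than in cytosolic RNA (1.03, SE 0.31, adjusted p = 0.0431). DAXX is annotated on 4 alternative contigs besides chromosome 6, which sets the same limit as for EHMT2.

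For comparison, 12 genes of the Polycomb silencing system, part of which makes H3K27 methylation, were read the same way. Between nuclear and cytosolic RNA 5 were lower and 4 were higher, beside 21.2% and 26.1% of all genes, with a median of -0.52. RNF2, a ubiquitin ligase, was lower (-1.63, SE 0.32, adjusted p = 0.00201) and the methyltransferase EZH1 was higher (1.51, SE 0.42, adjusted p = 0.0110). BMI1, a subunit of the same complex as RNF2, was higher than in nuclear RNA in native lamina RNA (1.21, SE 0.29, adjusted p = 0.0303) and in PFA lamina RNA (1.36, SE 0.29, adjusted p = 0.0121). In native lamina against cytosolic RNA 2 were higher, led by EZH1 (1.93, SE 0.43, adjusted p = 0.0139), and RNF2 was lower (-1.21, SE 0.32, adjusted p = 0.0246). Of all genes 6.99% were higher and 6.77% lower there. EZH1 was lower in PFA lamina RNA than in nuclear RNA (-1.38, SE 0.43, adjusted p = 0.0417). Median log2 fold changes from nuclear RNA in native lamina RNA were 0.57 (demethylases), 0.36 (partners), 0.15 (HP1-binding and heterochromatin proteins) and 0.41 (Polycomb), beside 0.59 for the members. In PFA lamina RNA they were -0.03, 0.07, -0.14 and 0.30 in the same order, beside 0.48 for the members. The members' differences from these lists were not tested.

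**Figure D4:**
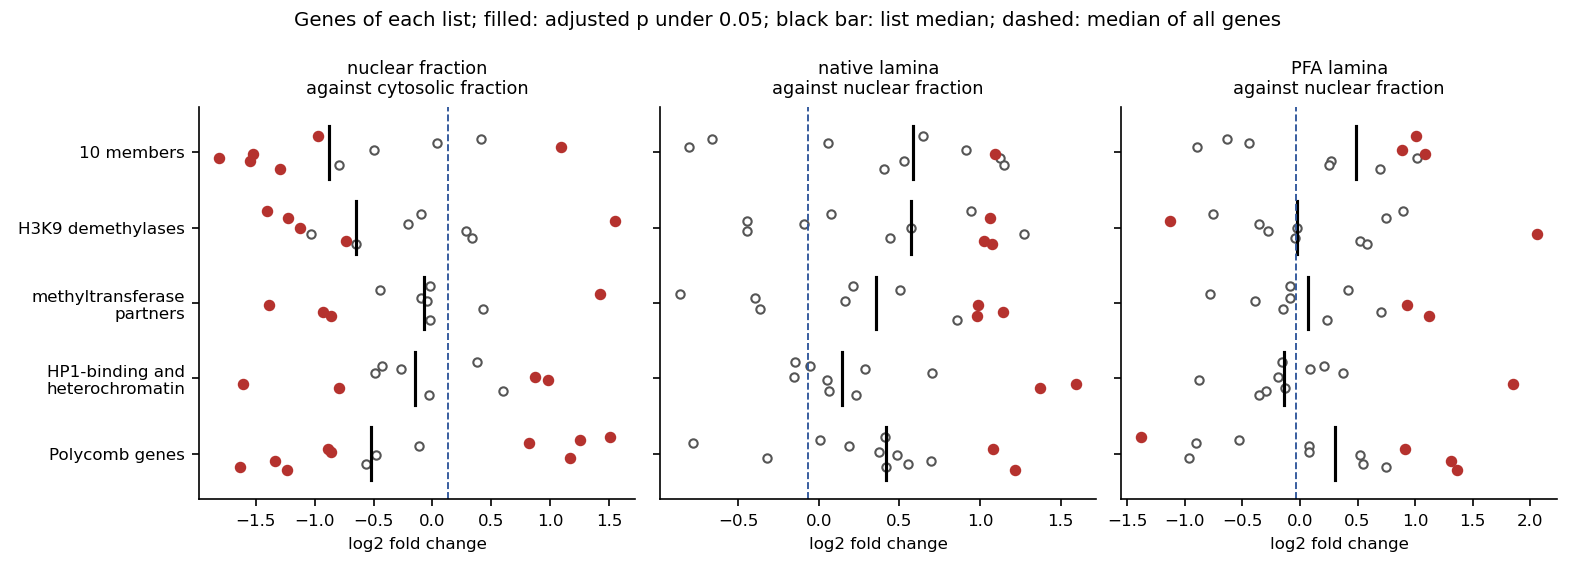
Log2 fold changes (horizontal axis) of the genes of each list in nuclear against cytosolic RNA and in each lamina preparation against nuclear RNA. Each point is a gene, filled where the adjusted p is under 0.05, the black bar is the list's median and the dashed line the median of all genes tested. Between the fractions every list holds filled points on both sides of 0, and the 10 members' median lies at -0.88.

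The genes whose levels were most like each member's were found among 7728 genes with at least 50 counts in every library, by Pearson's r of log2 normalised CPM over the 8 libraries. The values describe libraries that share their group, depth and preparation, and the nearest of so many genes has a high r by construction. They were PHB2 for SUV39H1 (r = 0.989), ATP6V1C2 for SUV39H2 (0.950), PRMT2 for SETDB1 (0.960), PTCD3 for SETDB2 (0.983), MAP3K1 for EHMT1 (0.985), PSMD4 for EHMT2 (0.982), KHDRBS1 for CBX1 (0.996), AK4 for CBX3 (0.986), UBXN7 for CBX5 (0.979) and COQ8A for TRIM28 (0.993). No member was the nearest gene of another because the 10 were left out of the search.

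The genes themselves were then placed against the lamina-associated domains of HCT116, which is another cell line than that of the RNA. None of the 10 overlapped a domain by a base or came within 100 kb of one in G1, S or G2. Of 27484 genes, 7.93% overlapped a domain in G1, 6.81% in S and 9.49% in G2, and 10.1%, 8.24% and 11.96% came within 100 kb. TRIM28 lay nearest, at 356 kb from a domain of chromosome 19 in G1 and G2 and at 1356 kb in S. EHMT1 and CBX5 lay farthest, EHMT1 at 17413 kb or more in each stage and CBX5 at 16125 kb or more. SETDB2 lay 1718 kb from the nearest domain in G1, 1618 kb in S and 3431 kb in G2. The lists hold 378, 303 and 388 domains without scores or replicates, so no error can be given for these distances.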

How the data were processed

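The authors deposited read counts per gene symbol, made with featureCounts 1.5.2 from hg19 alignments and a RefFlat annotation, per the file headers. Strand was not used, and reads that overlapped more than 1 gene were counted for each, per the same headers. TopHat2 2.1.1 and Bowtie2 2.3.2 are among the tools in the submitters' processing notes. The domain lists hold the authors' intervals on hg19 without scores, 1 list per stage.

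The filter filterByExpr, by group, kept 16504 genes. They were tested in 1 fit of the 8 libraries with edgeR 4.0.16 (R 4.3.3), TMM factors, the quasi-likelihood test and no block, in 6 comparisons that were each adjusted by Benjamini-Hochberg. A call is an adjusted p under 0.05. All 8 libraries were also simulated over 16504 genes from 1 mean level per gene, with some genes changed 4-fold in the nuclear group alone. Between nuclear and cytosolic libraries 84% of the changed genes were recovered and 9.19% of calls were false, a share above the threshold of 0.05. Far fewer genes were changed than the 7811 called in the data, so these rates need not hold there. Totals of 2321291 to 8557777 counts set the precision, with PFA replicate 2 the shallowest. Without molecular identifiers, reads are not independent molecules, and floors and intervals hold for counting error alone.

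The 10 members and the lists were chosen with earlier results of these data known. Named from each list and comparison were the called genes with the largest positive and negative log2 fold change, given 50 or more counts in both libraries of the higher group. Likeness was measured on log2 values with a prior count of 2, and genes overlapping a member's exons were named. KDM4D was named after its values were seen. Promoters are RefSeq sequences on GRCh38.p14, searched for exact motifs on both strands.

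Alternatives were DESeq2 size factors, total counts, upper-quartile factors, no filter, fits of only the 4 libraries compared, DESeq2 1.42.0 with its Wald test, a block for the replicate number, and leaving out each library. The length of EHMT2 summed over contigs was added after seeing the data. Samples of K562, whose title and material labels conflict, and the H3K9me3 samples of HCT116 were not analysed here.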

Additional observations from a re-analysis of the deposited data

How the results depend on the processing

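Of the members' fold changes, 43 were followed under 15 alternatives each. They were all those between the fractions and of each lamina preparation against nuclear RNA. Fold changes of other comparisons were added where the unadjusted p was under 0.05 or where they were picked by hand, and the rest were not counted. Of the 645 values, 557 kept their direction and side of the threshold, 36 lost their call, 43 gained one and 9 changed sign. The calls of EHMT2, CBX1 and CBX3 between the fractions were kept in all 15. For native lamina against nuclear RNA the members called numbered 1 in the main analysis (7.31% of all genes), 4 with total counts (11.5%), no filter (11.5%), the Wald test of DESeq2 (1734 of 16504 genes) or only the 4 libraries compared (27.1%), and 0 with upper-quartile factors (6.45%). For native lamina against cytosolic RNA they numbered 0 (13.8%), and 1 with no filter (14.4%), 2 with the Wald test (16.9%) and 2 with the 4 libraries (24.0%). For PFA lamina against nuclear RNA they numbered 3 (17.4%), and 1 with upper-quartile factors (16.8%) and 0 with the 4 libraries (3.73%). For PFA lamina against cytosolic RNA they numbered 0 (0.673%), and 1 with no filter (6.45%) or the Wald test (5.95%). Leaving out 1 library moved the number of calls over all genes as well as among the members. Calls gained or lost in those fits are therefore not a result about these genes alone. A group left with 1 library was assumed to vary like the others. The cause of these changes was not tested.

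SETDB1 between the fractions had a log2 fold change of -0.011 with no filter and from -0.085 (without nuclear replicate 2) to 0.13 when 1 library was left out, and it was also below 0 without cytosolic replicate 2 or PFA replicate 1. For native lamina against nuclear RNA it was -0.087 with upper-quartile factors and -0.033 (without nuclear replicate 1) to 0.18 with 1 library left out. Over all 15 alternatives SETDB1 reached 0.30 between the fractions and 0.35 for native lamina against nuclear RNA. CBX5 in native lamina against cytosolic RNA ran from -0.22 (without native replicate 2) to 0.76, CBX5 in PFA lamina against nuclear RNA from -0.070 (without nuclear replicate 1) to 0.67, and CBX3 in PFA lamina against nuclear RNA from -0.36 (without PFA replicate 1) to 0.70.

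Nothing in the labels says that libraries of the same number share a culture or day. The correlation of their deviations from the group means ran from -0.0674 to 0.321 and was over 0.1 in 3 of the 6 pairs of groups, so the values do not settle the pairing, and the block was kept as an alternative. With the replicate block 7 members were called between the fractions (50.5% of all genes), 3 for native lamina against nuclear RNA (11.2%), 2 for native lamina against cytosolic RNA (18.2%), 3 for PFA lamina against nuclear RNA (21.5%) and 0 against cytosolic RNA (2.45%). The members gained were CBX5 between the fractions, EHMT1 and CBX5 for native lamina against nuclear RNA, and CBX3 and TRIM28 for native lamina against cytosolic RNA.

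Scaling moved the balance of all calls. With total counts the share of calls that were higher went from 52.9% to 87.5% for native lamina and from 55.2% to 78.7% for PFA lamina against nuclear RNA, and from 50.8% to 73.9% for native lamina against cytosolic RNA. With upper-quartile factors it went from 55.2% to 67.6% between the fractions, and to 38.7% and 42.3% for native and PFA lamina against nuclear RNA. The all-gene median for native lamina against nuclear RNA moved with them, from -0.07 to 0.22 with total counts and to -0.22 with upper-quartile factors. Depth limits SETDB2 most, with 25 counts in PFA replicate 2.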
